A study of Mus musculus with 8 samples.

Results

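The polypeptide GalNAc-transferases (Galnt genes) and the core 1 galactosyltransferase C1galt1 were described across the libraries of mouse Tregs labelled Alox15-/- and WT. The genes were chosen by name as members of the O-glycosylation pathway, with differences between the 2 labels already known for some of them, so the contrast of the labels was used in choosing them and is given for them as a description. Of 10 listed genes, 9 had a row among the 28239 symbols of the count table, and all 9 reached at least 2 CPM (counts scaled to library size) in at least 4 libraries, the minimum for the 12700 genes tested. Galnt2 was not analysed here. Gm20388, a gene model that spans Galnt2 on the same strand, held between 9392 and 21395 counts per library, and no part of them was assigned to Galnt2.

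Mucin-type O-glycosylation starts in the Golgi, where a GalNAc-transferase moves N-acetylgalactosamine (GalNAc) from UDP-GalNAc to a serine or threonine of a protein. The isoenzymes overlap in part, some acting on bare peptides and others preferring peptides that already carry GalNAc. C1galt1 then adds galactose to form core 1, which is branched to core 2 or capped with sialic acid. On T cells these glycans decorate CD43, PSGL-1 and CD45, and they are remodelled when T cells are activated.

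The study asked whether lack of Alox15, a lipoxygenase that makes lipid mediators, altered transcription in Tregs. Naïve CD4+ T cells from spleens were cultured for 2 days with IL-2, TGF-β and beads that engage CD3 and CD28, in both groups alike. There were 4 libraries labelled Alox15-/- (KO) and 4 labelled wild type, all on a C57BL/6 background, and nothing in the labels ties libraries of the 2 groups to shared litters. The methods give mice of both sexes, 10 to 12 weeks old, the WT mice from Charles River and the Alox15-/- mice from The Jackson Laboratory, so the supplier cannot be told apart from the genotype. The RNA was read by MACE-seq, which sequences transcripts near their 3′ ends. Library totals were between 3723151 and 6952596 counts for the label Alox15-/- and between 4810125 and 9538962 for the label WT.

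Alox15 itself went against its label. It was at 70.2, 68.8, 63.4 and 65.0 CPM in the libraries labelled Alox15-/- and at 1.87, 2.55, 7.73 and 8.98 CPM in those labelled WT. The sources used here do not say which part of the gene the allele lacks, so a 3′ tag does not check the deletion. Directions below therefore compare what is labelled Alox15-/- with what is labelled WT. T cell markers (Cd3d, Cd3e, Cd3g, Cd4, Cd5 and Trac) summed to between 1490 and 1699 CPM against 1569 to 1914 CPM in WT, and Treg markers (Foxp3, Il2ra, Ctla4, Ikzf2 and Tnfrsf18) to between 1655 and 1811 CPM against 1745 to 1940 CPM. Cd4, the marker of the cells put in culture, was lower without overlap, at 208.7 to 295.5 CPM against 326 to 350.1 CPM (edgeR adjusted p = 0.358), and Foxp3, the defining factor of Tregs, was at 71.4 to 113 CPM against 92.9 to 194 CPM (edgeR adjusted p = 0.655). Summed levels of myeloid, erythroid, eosinophil, mast cell and basophil, and NK and γδ T cell markers were higher in all 4 libraries labelled Alox15-/- than in any WT library. Summed erythroid markers were between 903.5 and 3473 CPM against 33.7 to 122 CPM (5 of 5 tested genes called higher), and mast cell and basophil markers between 108 and 320 CPM against 26.5 to 47.0 CPM (6 of 6). Myeloid markers were between 45.2 and 339 CPM against 11.5 to 15.6 CPM (6 of 6), eosinophil markers between 19.2 and 68.8 CPM against 1.25 to 10.2 CPM (2 of 2), and NK and γδ T cell markers between 71.0 and 132 CPM against 20.2 to 37.6 CPM (4 of 4). B cell markers were between 5.29 and 7.29 CPM against 7.64 to 18.0 CPM (1 of 2 called lower), and CD8 T cell markers between 12.02 and 21.8 CPM against 21.4 to 31.6 CPM (0 of 2). No listed marker was at 0 in every library of a label. In such bulk RNA, fewer cells of a type and less RNA per cell cannot be told apart.

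Galnt10 and Galnt11 were the members that stood lower in the libraries labelled Alox15-/-, and their promoter windows are shown because these were the 2 members called. Galnt10 (ENSMUSG00000020520.14) lies on the plus strand of chromosome 11, from 57645442 to 57787514, and Galnt11 (ENSMUSG00000038072.14) on the plus strand of chromosome 5, from 25221904 to 25265918 (GENCODE, GRCm38). The windows are from RefSeq on GRCm38.p6 and run from 250 bases before to 50 after an annotated start. They are chr11:57645192-57645491 for Galnt10 and chr5:25222622-25222921 for the more upstream RefSeq start of Galnt11, both on the plus strand. The Galnt11 window begins after the GENCODE start at 25221904 and so does not cover it. Capitals mark the GC box (GGGCGG) and the cAMP response element (TGACGTCA), searched on both strands, the second of them after the sequence had been seen.
Galnt10: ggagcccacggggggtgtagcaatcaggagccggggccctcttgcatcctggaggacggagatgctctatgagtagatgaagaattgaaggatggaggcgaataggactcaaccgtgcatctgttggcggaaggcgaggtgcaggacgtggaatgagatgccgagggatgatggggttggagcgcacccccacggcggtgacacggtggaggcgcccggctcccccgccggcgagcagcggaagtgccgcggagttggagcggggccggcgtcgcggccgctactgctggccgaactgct
Galnt11: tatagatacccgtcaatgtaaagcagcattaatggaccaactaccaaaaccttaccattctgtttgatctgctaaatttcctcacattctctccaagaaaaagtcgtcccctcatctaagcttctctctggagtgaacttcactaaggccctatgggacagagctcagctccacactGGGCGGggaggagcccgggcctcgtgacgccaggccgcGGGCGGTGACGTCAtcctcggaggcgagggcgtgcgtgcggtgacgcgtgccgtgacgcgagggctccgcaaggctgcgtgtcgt
The Galnt10 window held 28 CpG dinucleotides and 66.0% G and C, and none of the motifs searched. The Galnt11 window held 23 CpG dinucleotides, 57.0% G and C, 2 GC boxes and 1 cAMP response element directly after the second GC box. Over the 32851 windows of the table the median was 7 CpG dinucleotides and 52.7% G and C, 35.7% of windows held a GC box and 1.8% a cAMP response element. The CCAAT box (CCAAT), the TATA box (TATAAA) and the E-box (CACGTG), held by 37.4%, 13.6% and 7.2% of windows, were absent from both. The second annotated start of Galnt11, further downstream, had 7 CpG dinucleotides and none of the motifs. Windows were also found for Galnt3, Galnt6, Galnt7 and C1galt1, whose windows at the upstream start held between 25 and 52 CpG dinucleotides and between 2 and 6 GC boxes.

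Galnt10 encodes an isoenzyme that prefers peptides already carrying GalNAc. It was at 45.9, 45.1, 53.1 and 49.2 CPM in the libraries labelled Alox15-/- and at 91.9, 90.8, 94.8 and 73.7 CPM in those labelled WT. The highest library labelled Alox15-/- lay below the lowest WT library. The means were 48.3 ± 3.63 and 87.8 ± 9.55 CPM (SD, n = 4 each), so that the first was 55.0% of the second. The log2 fold change was -0.86 (standard error 0.112, 95% interval from -1.10 to -0.62). Between 167 and 945 reads were counted on the gene per library.

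Galnt11 encodes another isoenzyme of the family that starts O-glycans. It was at 11.3, 8.64, 8.84 and 11.6 CPM in the libraries labelled Alox15-/- and at 27.6, 28.8, 26.1 and 26.1 CPM in those labelled WT. The WT libraries differed little among themselves, with a coefficient of variation of 4.89%, and all lay above every library labelled Alox15-/-. The means were 10.1 ± 1.57 and 27.2 ± 1.33 CPM (SD, n = 4 each), the first 37.2% of the second. The log2 fold change was -1.42 (standard error 0.151, 95% interval from -1.74 to -1.10), from between 32 and 260 reads per library.

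Both genes were past an adjusted p of 0.05 in the edgeR fit of all genes, which makes 2 of 9 members called lower and 0 called higher. Over all genes tested, 0.197% were called lower and 1.24% were called in either direction, and 2.5% had all 4 libraries labelled Alox15-/- below all 4 labelled WT. Because the members were chosen with these differences known, the count is a description. In the same edgeR fit the larger adjusted p of the 2 called members was 0.000447 (Galnt10), and the smallest of the others was 0.696 (Galnt6). By log2 fold change Galnt11 ranked 11 and Galnt10 ranked 40 from the lowest of the 12700 genes. Cd4 and the markers of other cells given above moved with the same contrast, and their part in the result was not tested. Without replicates 2 and 3 labelled Alox15-/-, which had the highest erythroid and myeloid sums, the log2 fold changes were -0.88 for Galnt10 and -1.24 for Galnt11. The 2 libraries then left in that group, replicates 1 and 4, had erythroid sums of 1091 and 903.5 CPM and myeloid sums of 85.5 and 45.2 CPM, above every WT library.

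**Figure D1:**
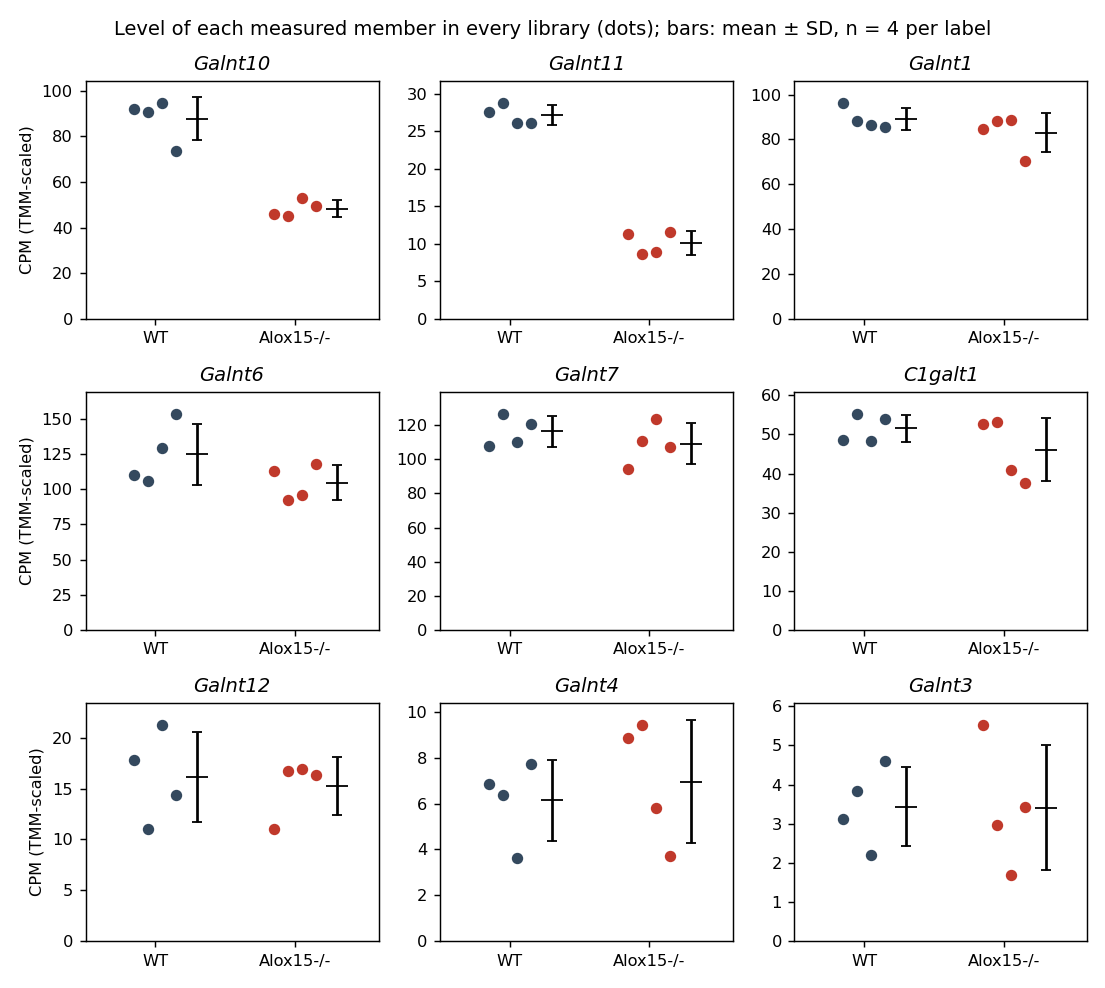
Level of each of the 9 measured members in CPM (y axis, from 0) in the 4 libraries labelled WT and the 4 labelled Alox15-/- (dots), with the mean ± SD of each label beside them. Galnt10 and Galnt11 are the panels in which the dots of the 2 labels do not overlap.

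The other isoenzymes did not pass the threshold, and the libraries of the 2 labels overlapped for each of them. Galnt1 (chromosome 18), a broadly expressed isoenzyme that acts on bare peptides, was between 70.3 and 88.6 CPM in the libraries labelled Alox15-/- and between 85.4 and 96.4 CPM in WT. Its log2 fold change was -0.11, with a 95% interval from -0.33 to 0.12. Galnt7 (chromosome 8), which like Galnt10 prefers peptides already glycosylated, was between 94.7 and 124 CPM against 107.8 to 127 CPM, with a log2 fold change of -0.09 (95% interval from -0.32 to 0.14).

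Galnt6 (chromosome 15), a close relative of Galnt3, was between 92.3 and 118 CPM in the libraries labelled Alox15-/- and between 106 and 154 CPM in WT. Its log2 fold change of -0.25 (95% interval from -0.53 to 0.03) came to -0.13 without WT replicate 4, its highest library at 153.7 CPM. Galnt12 (chromosome 4), which also favours glycosylated peptides, was between 11.1 and 16.9 CPM against 11.0 to 21.3 CPM, with a log2 fold change of -0.09 (95% interval from -0.53 to 0.35). These 2 genes varied more between WT libraries than Galnt1 and Galnt7 did, with coefficients of variation of 17.5% and 27.4% against 5.6% and 7.65%.

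Galnt4 and Galnt3 were the least abundant members. Galnt4 (chromosome 10) was between 3.72 and 9.45 CPM against 3.61 to 7.72 CPM, from 26 to 44 reads per library, and it lies inside Poc1b on the same strand, so reads of the 2 genes may be split uncertainly. Galnt3 (chromosome 2), which glycosylates the phosphate hormone FGF23, was between 1.69 and 5.53 CPM against 2.21 to 4.59 CPM, from 9 to 24 reads per library. Their log2 fold changes of 0.17 (95% interval from -0.50 to 0.83) and 0.01 (95% interval from -0.73 to 0.75) had the widest intervals of the 9 members. C1galt1 (chromosome 6), which makes core 1, was between 37.5 and 53.2 CPM against 48.4 to 55.3 CPM, with a log2 fold change of -0.17 (95% interval from -0.45 to 0.10).

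Within the WT libraries the order of mean levels was Galnt6 (124.8 CPM), Galnt7 (116 CPM), Galnt1 (89.1 CPM), Galnt10 (87.8 CPM), C1galt1 (51.5 CPM), Galnt11 (27.2 CPM), Galnt12 (16.1 CPM), Galnt4 (6.14 CPM) and Galnt3 (3.44 CPM). These are CPM of 3′ tags, whose number is not meant to grow with transcript length, so they need no scaling by length. Per kilobase of the longest annotated transcript, given only as a description, Galnt11 and Galnt12 changed places in WT. Galnt6 and Galnt7 did so in the libraries labelled Alox15-/-, and the other ranks were the same. The ranges of Galnt6 and Galnt7, of Galnt1 and Galnt10, and of Galnt4 and Galnt3 overlapped. In the libraries labelled Alox15-/- Galnt10 still ranked 4, but at the level of C1galt1, whose mean there was 46.0 CPM and whose range it overlapped, and apart from Galnt1. By mean, Galnt11 came after Galnt12 in these libraries, with overlapping ranges, as had Galnt7 and Galnt6, Galnt11 and Galnt4, and Galnt4 and Galnt3.

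Added over the 8 measured GalNAc-transferases, the level was 375, 374, 395 and 379.5 CPM in the libraries labelled Alox15-/- and 461, 462, 474.5 and 486 CPM in those labelled WT. The libraries of the 2 labels did not overlap in this sum. Without Galnt10 and Galnt11 the sum was between 318 and 333 CPM against 342 to 386 CPM, again without overlap. Each gene left in this sum overlapped between the labels on its own, and none of them was called. The sums were not recomputed under other scalings, and the share of other gene sets with such a gap was not computed. Of the difference of -90.0 CPM between the means, Galnt10 made up 43.9%, Galnt6 22.2% and Galnt11 19.0%. Without WT replicate 4, a choice made after seeing the data, these parts were 52.0%, 12.2% and 20.5% of -84.9 CPM. Galnt10 was between 12.1% and 13.4% of the GalNAc-transferase counts in the libraries labelled Alox15-/- and between 15.2% and 20.0% in WT. The share of Galnt11 was between 2.24% and 3.05% against 5.37% to 6.25%. Ratios of counts within a library do not depend on how libraries are scaled. For each count of Galnt1 there were between 0.511 and 0.701 counts of Galnt10 in the libraries labelled Alox15-/- and between 0.863 and 1.096 in WT, and between 0.0979 and 0.165 counts of Galnt11 against 0.286 to 0.327. The ratio of Galnt7 to Galnt1, between 1.12 and 1.53 against 1.12 to 1.44, overlapped.

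**Figure D2:**
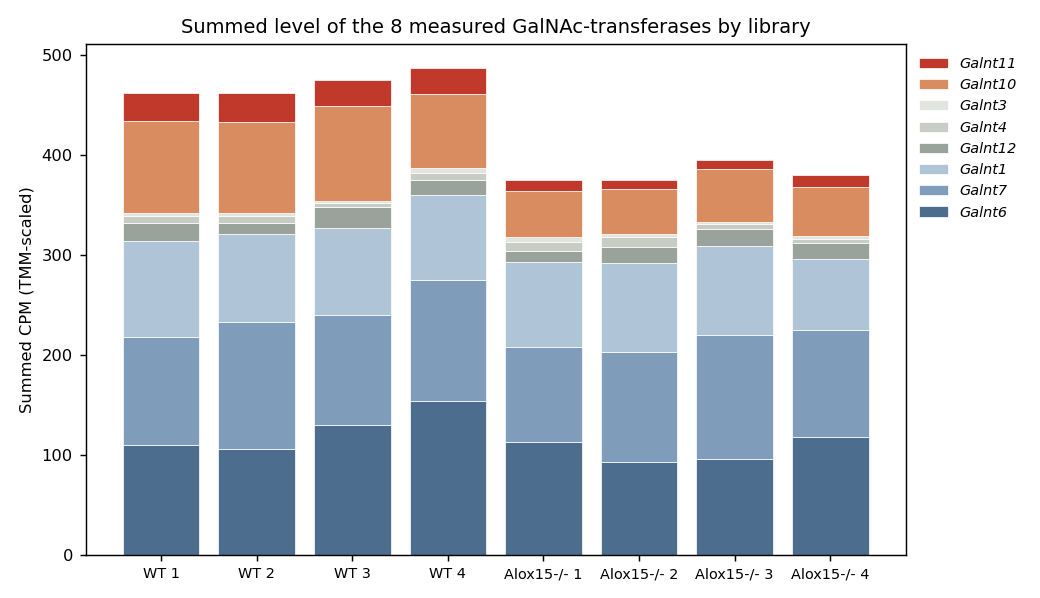
Stacked level of the 8 measured GalNAc-transferases in CPM (y axis) in each library (x axis). The stacks of the libraries labelled Alox15-/- reach 374 to 395 CPM and those labelled WT 461 to 486 CPM, with the upper 2 segments, Galnt10 and Galnt11, thinner in the former.

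The rest of the pathway was taken from lists of 43 genes written from textbook knowledge, of which 42 had a row and 29 were tested. Of these 29 genes, 0 were called by edgeR (quasi-likelihood test, adjusted over all genes after Benjamini and Hochberg), against 1.24% of all genes tested. An unadjusted p under 0.05 in edgeR was reached by 5 of the 29, a larger share than the 7.84% of all genes. DESeq2 called 1 of the 29 (Gcnt1) and limma-voom 0. In sign, 13 were higher and 16 lower. The log2 fold changes had a median of -0.06, and over all genes tested the median was -0.0073 with 51.8% lower.

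Most other GalNAc-transferase genes were too low to test. Only Galnt9, a member of the family known from the brain, was tested of 9 with a row, at 5.08 ± 1.42 CPM against 3.74 ± 0.951 CPM in WT (SD, n = 4 each), a log2 fold change of 0.45 (adjusted p = 0.763, edgeR) that came to 0.21 without replicate 4 labelled Alox15-/-, its highest library at 7.16 CPM. Galnt5, Galnt13, Galnt14, Galnt16, Galnt17 (listed as Wbscr17), Galnt18, Galntl5 and Galntl6 did not reach the minimum, which was set on counts over library totals. The CPM printed here carry a further scaling (TMM), and on these Galnt17 was above 2 CPM in 4 libraries. It was at 2.16 and 2.45 CPM in replicates 2 and 3 labelled Alox15-/-, and at 2.03 and 2.01 CPM in WT replicates 1 and 3.

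At the core, C1galt1c1, the chaperone (Cosmc) that C1galt1 needs for folding, was at 16.4 ± 2.10 CPM in the libraries labelled Alox15-/- and 16.4 ± 2.16 CPM in WT (SD, n = 4 each), a log2 fold change of 0.0042 (95% interval from -0.34 to 0.35). Gcnt1, which branches core 1 to core 2, was at 7.69, 10.8, 5.27 and 2.43 CPM against 2.65, 2.55, 1.91 and 2.92 CPM. Replicates 1 to 3 labelled Alox15-/- lay above WT and replicate 4 within it. The log2 fold change was 1.34 (standard error 0.385), with an edgeR adjusted p of 0.18. With 1 library left out it was between 1.002 (without replicate 2 labelled Alox15-/-, edgeR adjusted p = 0.522) and 1.66 (without replicate 4, edgeR adjusted p = 0.0116), and without replicates 2 and 3 it was 0.96 (edgeR adjusted p = 0.767). Summed myeloid markers in replicates 1 to 4 of that label were at 85.5, 339, 207.7 and 45.2 CPM, and their part in the difference was not tested. Gcnt4, a related core 2 enzyme named after its values were seen, was at 4.80, 2.16, 2.82 and 4.01 CPM against 7.33, 6.53, 5.12 and 8.35 CPM, all below WT. Its log2 fold change was -0.95 ± 0.276 (SE), and edgeR gave an adjusted p of 0.199. Gcnt1 and Gcnt4 thus had opposite signs, and neither passed the adjusted threshold in edgeR with all 8 libraries and the filter on low counts.

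Of the 8 tested genes that extend, sialylate or fucosylate O-glycans, 5 were higher and 3 lower. B4galt1, which adds galactose to N-acetylglucosamine, was at 322 ± 28.3 CPM against 302 ± 30.5 CPM in WT (SD, n = 4 each), a difference smaller than either SD. St6galnac3, which adds sialic acid to the GalNAc of sialylated chains, was at 7.02 ± 2.45 against 4.42 ± 0.619 CPM (log2 fold change 0.66, edgeR adjusted p = 0.549). St3gal2, a sialyltransferase of core 1 that was also named after its values were seen, was at 19.2 ± 6.47 against 28.1 ± 2.12 CPM (log2 fold change -0.56, edgeR adjusted p = 0.35). Replicate 1 labelled Alox15-/-, at 27.9 CPM, lay within the WT range. With 1 library left out the log2 fold change was between -0.77 (without that replicate, edgeR adjusted p = 0.0456) and -0.42 (without replicate 3, edgeR adjusted p = 0.699), and without replicates 2 and 3 it was -0.24 (edgeR adjusted p = 0.902).

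All 11 genes of sugar donor supply were tested, 4 higher and 7 lower, with log2 fold changes between -0.26 and 0.19. Galk2, the kinase that salvages free GalNAc, had the largest of them. It was at 41.8, 39.1, 44.4 and 42.8 CPM in the libraries labelled Alox15-/- and at 50.7, 49.4, 49.0 and 53.2 CPM in WT, without overlap, and its adjusted p in edgeR was 0.504. Nans, the sialic acid synthase, was at 118 ± 11.97 against 106 ± 6.32 CPM (log2 fold change 0.15, edgeR adjusted p = 0.782).

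Of the 6 proteins listed as carriers of O-glycans, 1 was higher and 5 lower, and 0 were called by edgeR, with 0 at an unadjusted p under 0.05. Ptprc (CD45) was at 476 ± 60.6 CPM against 530.2 ± 47.4 CPM in WT (log2 fold change -0.16, edgeR adjusted p = 0.788). Enzymes that transfer GalNAc to other glycans, the nearest comparison, also held 0 called of 7 tested in edgeR, DESeq2 and limma-voom, and 0 of them had an unadjusted p under 0.05. Their median log2 fold change was 0.20, with 5 higher and 2 lower. B4galnt1, the enzyme of GM2 and GD2 gangliosides, was at 241 ± 45.4 against 261 ± 67.7 CPM (log2 fold change -0.11). B4galnt2, which makes the Sda antigen, was at 2.78 ± 0.887 against 1.86 ± 0.191 CPM (log2 fold change 0.63, edgeR adjusted p = 0.676). With 1 library left out the log2 fold change of B4galnt2 was between 0.40 and 0.76. The lowest came without replicate 4 labelled Alox15-/-, its highest library at 3.86 CPM.

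**Figure D3:**
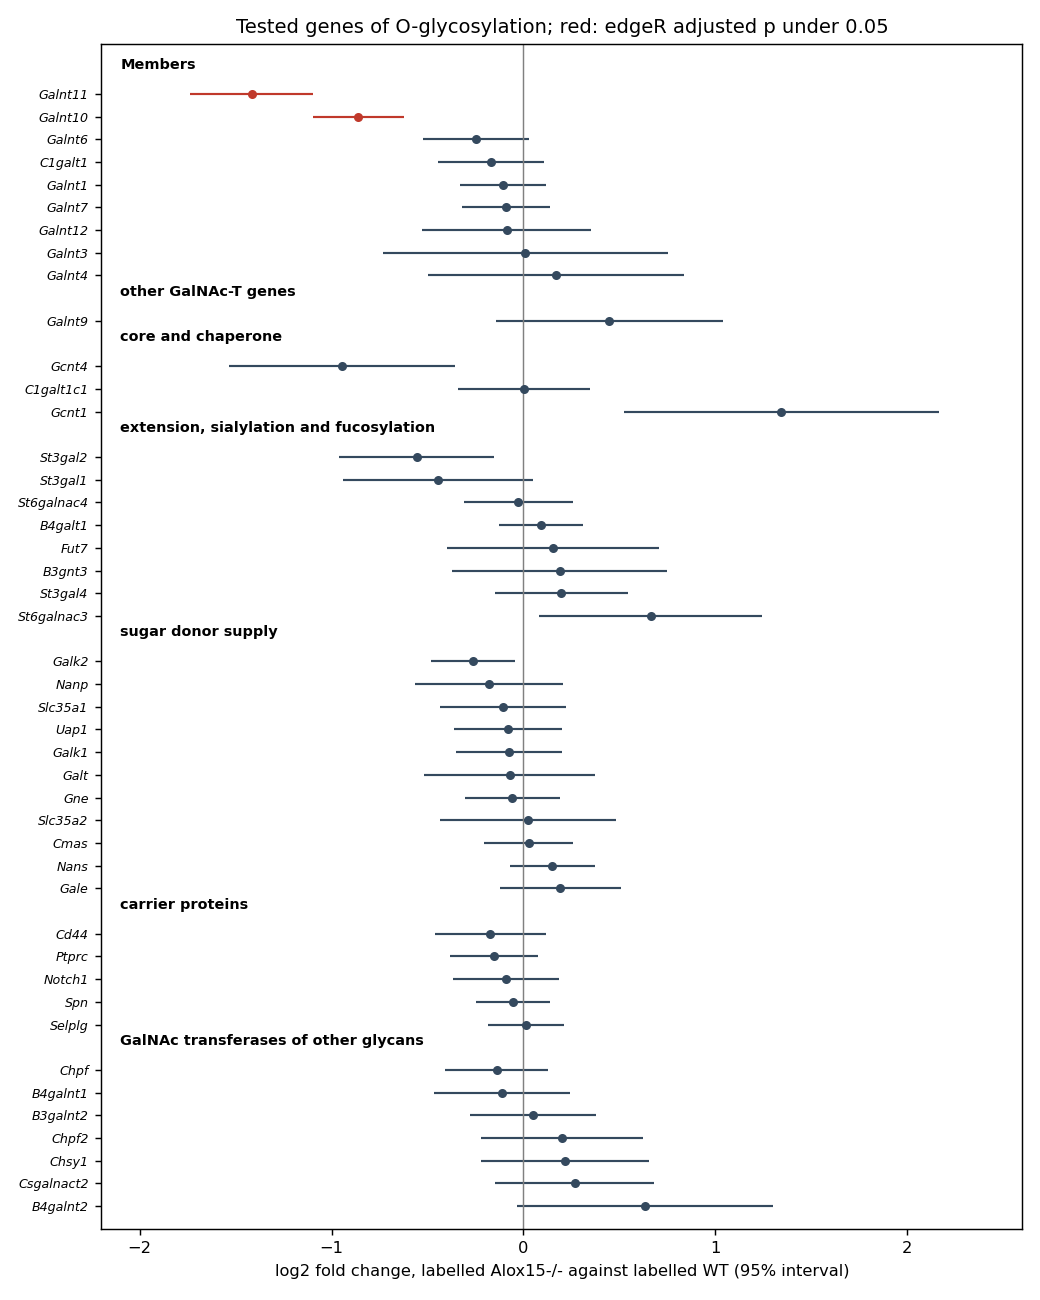
Log2 fold change of the tested genes reported here, libraries labelled Alox15-/- against those labelled WT (x axis), with its 95% interval, by list. Of all the genes drawn, the 2 in red, Galnt11 at -1.42 and Galnt10 at -0.86, had an adjusted p under 0.05 in edgeR.

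**Figure D4:**
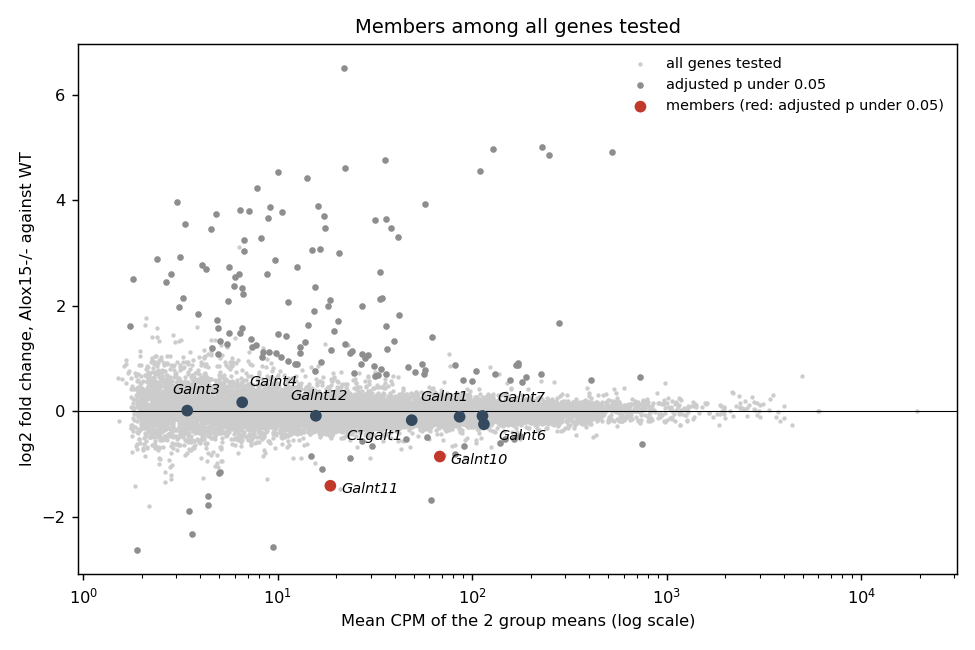
Log2 fold change (y axis) against mean CPM on a log scale (x axis) for the 12700 genes tested (light grey), the called genes (dark grey) and the 9 members. Galnt10 and Galnt11 lie below the band of genes at their level, and the other 7 members lie within it.

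Genes around Galnt10 and Galnt11 were compared because Galnt10 lies 12.56 Mb from Alox15 on the same chromosome. Within 1 Mb of the start of Galnt10, 16 other genes were tested, 5 of them lower and 11 higher. Their log2 fold changes had a median of 0.10 and a lowest value of -0.32. Irgm2, an interferon-induced GTPase, was the 1 neighbour called (log2 fold change 1.06, edgeR adjusted p = 0.0012), in the other direction. The closest tested neighbours, Fam114a2 and Mfap3 upstream and Sap30l downstream, had log2 fold changes of 0.02, 0.27 and 0.34. Around Galnt11 19 genes were tested within 1 Mb, 7 lower and 12 higher, between -0.27 and 0.42, and 0 were called in edgeR's adjusted test. The nearest, Prkag2 and the pseudogene Hspe1-ps3, had log2 fold changes of 0.04 and 0.01. The antisense gene 4933424L21Rik overlaps the start of Galnt10 with between 1 and 25 counts per library.

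**Figure D5:**
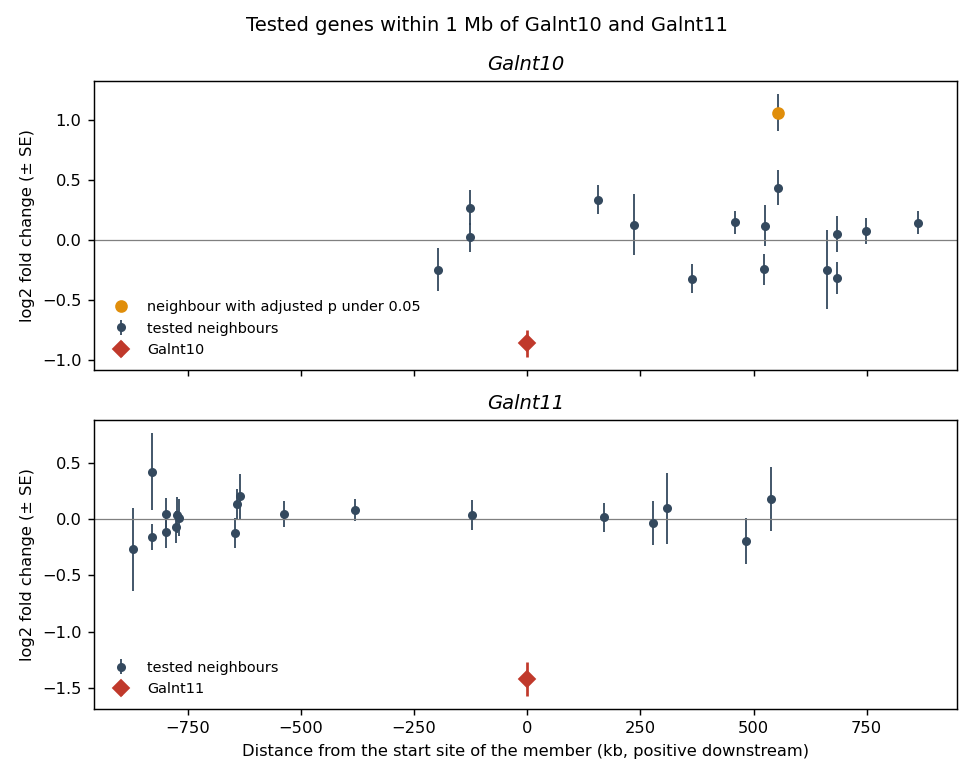
Log2 fold change ± standard error (y axis) of tested genes by the distance of their start from that of Galnt10 (upper panel) or Galnt11 (lower panel) in kb (x axis). The member (red) is the lowest point of each panel, at -0.86 and -1.42, while its neighbours lie between -0.32 and 1.06 and between -0.27 and 0.42.

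Over the 8 libraries, the genes whose log2 of CPM + 1 followed Galnt10 most closely were Olfr1033 (Pearson's r of 0.979), Nudc-ps1 (0.970) and Aasdhppt (0.967). For Galnt11 they were Zfp954 (0.985), Ubb (0.984) and Arhgef12 (0.965). In each of the 6 genes all 4 libraries labelled Alox15-/- lay below all 4 labelled WT, as in 2.5% of all genes tested. Galnt10 and Galnt11 are themselves apart by label, so genes picked for following them are apart too. The values are given as a description. Of the 6 genes, Olfr1033 (log2 fold change -2.57), Ubb (-0.63) and Arhgef12 (-0.89) were called lower in the edgeR fit.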

How the data were processed

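Whole-number counts per gene symbol of 8 MACE-seq libraries, not normalized, were deposited by the authors in 1 table, with 4 libraries labelled Alox15-/- and 4 labelled WT. The submitters' processing notes name Bowtie, edgeR and GRCm38. The counting tool, its use of strand and the removal of duplicates are not given in the sources used here. The labels name a small RNA kit and the methods the MACE-Seq Kit. Counts were tested with edgeR 4.0.16 (R 4.3.3): TMM scaling, a minimum of 2 CPM reached by 4 or more libraries, quasi-likelihood test of label alone, Benjamini–Hochberg adjustment over all 12700 genes and a threshold of 0.05. The minimum was applied to counts over library totals, while the CPM printed are also TMM-scaled. The code was tested on simulated data. P-values set the difference of the labels against the spread between these libraries, with that spread moderated over all genes tested. Standard errors were computed back from the log2 fold change and the F statistic of the test. Intervals are 95%.

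The members and lists were chosen with earlier results of these data known. The pathway genes named were, by rule, any past the threshold and, in each list, the tested gene with the largest absolute log2 fold change and that with the highest mean CPM. Gcnt4, St3gal2, the cAMP response element and the neighbouring genes were chosen after values or sequences were seen. DESeq2 1.42.0, limma-voom (limma 3.58.1), other scalings and filters, a replicate block and leaving out libraries were the alternatives. Positions are from GENCODE on GRCm38, and promoter windows from RefSeq, found for 6 of the 9 measured members. The values of 1 gene of the carrier list are not reported here, though it is counted in its list.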

Additional observations from a re-analysis of the deposited data

Results flagged for a closer look

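Galnt12 in replicate 1 labelled Alox15-/- was at 11.1 CPM, while the other libraries of that label were between 16.3 and 16.9 CPM. Its gap to the nearest of them was 0.895 of the whole range of the group, above Dixon's 95% critical value for 4 samples. This was 1 of 20 groups of 4 libraries examined, and chance alone gives about 1 in 20.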

How the results depend on the processing

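Galnt10 and Galnt11 were called lower in all 16 alternatives, with log2 fold changes between -0.93 and -0.82 and between -1.501 and -1.24. Leaving out 1 library at a time gave -0.93 to -0.82 for Galnt10, -1.501 to -1.35 for Galnt11, 106 to 179 genes called, 2 members called, and 0 to 1 other gene of O-glycosylation called, which was St3gal2 without replicate 1 labelled Alox15-/- (log2 fold change -0.77) or Gcnt1 without replicate 4 (1.66). Without a filter on low counts 388 genes were called, among them 2 of O-glycosylation, Gcnt1 (1.32) and St3gal2 (-0.58), and the DESeq2 test called 1, Gcnt1 (1.37). Without replicates 2 and 3 labelled Alox15-/-, an alternative chosen after seeing the data, 82 genes were called. The cause was not tested. Among the 22 genes whose alternatives were computed, signs turned for 5. Galnt3 was at -0.012 without a filter, -0.011 in limma-voom, -0.057 with the replicate block, and between -0.29 and 0.25 with 1 library left out. C1galt1c1 was at -0.018 without a filter, -0.11 without replicates 2 and 3, and between -0.084 and 0.098 with 1 library left out. B4galnt1 was at 0.0085 without replicates 2 and 3, and between -0.19 and 0.086 with 1 library left out. Galnt4 was between -0.044 and 0.41 and Galnt12 between -0.23 and 0.094 with 1 library left out. Per kilobase, a scaling that 3′ tags do not call for, Galnt11 ranked 7 and Galnt12 ranked 6 in WT. Deviations of same-numbered libraries correlated at 0.067, 0.179, -0.198 and -0.017, and those of differently numbered libraries at between -0.236 and 0.159. With so few libraries per label this can neither show nor exclude shared pairs, and the labels give none. The fit with the replicate block called 146 genes and gave -0.85 for Galnt10 and -1.42 for Galnt11. Depth limits Galnt3, with 9 to 24 reads per library, and Galnt4, with 26 to 44. It also limits Gcnt1 (14 to 40 reads), Gcnt4 (8 to 51), Galnt9 (15 to 50) and B4galnt2 (7 to 27).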
